A study of Mus musculus with 8 samples.

Results

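The genes described here are 37 genes of the endoplasmic reticulum (ER), the compartment in which secreted and membrane proteins are folded. They comprise stress sensors and the transcription factors they control, chaperones, disulfide isomerases, and the machinery of protein degradation, translocation and export. They were chosen by name and not by their level: each row of the expression table whose gene name was one of the 37 was taken, which gave 38 rows of the 55679 in the table. Expression was given in FPKM, a fragment count scaled to the length of the transcript and to the mapped fragments of the library. Ddit3 had 2 rows, of which one (ENSMUSG00000116429) was at 0 in all 8 libraries; all of its 50-base words also occur in the other Ddit3 gene. The other 37 rows all passed the filter on low values, a mean of 0.1 FPKM or more, and were among the 19364 genes tested. Bulk RNA-seq gave 8 libraries of the left ventricle of male C57BL/6J mice, all of wild-type (WT) genotype with no transgene or deletion. The control group (n = 4) was given saline and the ANG II group (n = 4) was given angiotensin II, a peptide hormone that constricts vessels and raises blood pressure. Infusion lasted 7 days in both groups, from osmotic mini-pumps under the skin, and the dose of ANG II was 1500 ng/kg/min. The age of the mice was not given in the sources used here, and the ventricle was measured as a whole, with all of its cell types. Gene positions below are those of GENCODE M21 (GRCm38).

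Unfolded protein in the ER is sensed by proteins of the ER membrane, among them IRE1 (gene Ern1), PERK (Eif2ak3) and ATF6 (Atf6). IRE1 splices Xbp1 mRNA so that it encodes an active transcription factor, PERK phosphorylates a translation initiation factor and thereby favours the translation of Atf4, and ATF6 is cut in the Golgi to release a transcription factor; together these branches form the unfolded protein response. In the heart, the ER of cardiomyocytes includes the sarcoplasmic reticulum that stores calcium, and the ER of fibroblasts folds and exports collagen. FPKM summed over a gene shows neither the splicing of Xbp1 nor the phosphorylation or cleavage of any of these proteins.

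Elements of promoters that the unfolded protein response is known to act through were looked up in RefSeq promoter windows (GRCm38.p6), which run from 250 bases before to 50 bases after a gene's start. Windows were found for 30 of the 37 genes (31 windows), and none for Sec61a1, Atf6, Manf, Hyou1, Derl1, Kdelr2 and Creb3l1. The ER stress response element (ERSE), searched on both strands as CCAAT and CCACG with any 9 bases between them, was in 0.119% of all 32851 windows and in those of 6 of the genes: Calr, Canx, Creld2, Derl3, Pdia6 and Syvn1. The related element ERSE-II, searched on both strands as ATTGG and CCACG with any 1 base between them, was in 0.0365% of all windows and in that of Herpud1. These stretches are shown because the 7 genes that hold them are chaperone and degradation genes whose levels are followed below. Each is written 5′ to 3′ on the strand of its gene, and the capitals mark the fixed bases of the element.
Calr (chr8:84847063-84847105, minus strand): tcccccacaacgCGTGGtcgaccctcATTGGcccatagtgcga
Canx (chr11:50325788-50325830, minus strand): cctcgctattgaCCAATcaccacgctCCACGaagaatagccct
Creld2 (chr15:88819508-88819550, plus strand): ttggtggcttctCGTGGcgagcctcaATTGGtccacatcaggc
Derl3 (chr10:75893230-75893272, plus strand): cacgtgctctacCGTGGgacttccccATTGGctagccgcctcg
Pdia6 (chr12:17266479-17266521, plus strand): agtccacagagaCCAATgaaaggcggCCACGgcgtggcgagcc
Syvn1 (chr19:6046520-6046562, plus strand): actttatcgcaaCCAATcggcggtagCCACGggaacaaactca
Herpud1 (chr8:94386365-94386399, plus strand): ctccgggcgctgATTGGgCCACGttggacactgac
The part that these elements share, CCACG, was by itself in 32.8% of all windows and in those of 22 of the 30 genes. Every match of the longer elements holds a match of CCACG. A match describes the letters of a window and is neither a site nor a cause.

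The libraries held 14455646 to 16564835 fragments each, as read from the steps of the FPKM values. The genes ranged from Derl3, with 2 to 9 fragments per library, to Canx, with 4844 to 6156. Control replicate 2 stood low for part of the list. It was the lowest of the 4 control libraries for 19 of the 37 genes, among them all 4 luminal chaperones and stress-induced factors (Hyou1, Sdf2l1, Manf and Creld2), for which its median log2 distance from the control mean was -0.43. Over all genes tested its median distance was 0.012. Control replicate 1 was the highest for those same 4 genes, and results that rest on them are given with and without control replicate 2.

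Of the 37 genes tested, 12 were higher in ANG II, 1 was lower and 24 did not pass. A gene passed at an adjusted p under 0.05 (limma on log2(FPKM + 1), Benjamini-Hochberg over all genes tested) with an absolute log2 fold change above 0.5. Of all genes tested, 14% passed as higher and 1.41% as lower. The 12 were Kdelr3, Creb3l2, Sec61b, Pdia5, Trib3, Edem1, Sec61a1, Edem2, P4hb, Sec24d, Creb3l1 and Eif2ak3, with log2 fold changes from 0.50 to 1.29, and the 1 that was lower was Manf. Without control replicate 2, 14 were higher and 1 lower, beside 2783 and 262 of the 19412 genes then tested. By adjusted p alone, 18 genes were higher and 2 were lower (Hyou1 and Manf), beside 28.4% and 4.91% of all genes. For Hyou1 this call ended without any 1 of the 7 libraries other than control replicate 2 (adjusted p = 0.0597 to 0.108), without the filter on low values (0.0769), without the variance trend (0.0632) and with the replicate block (0.07). For Ern1 it ended without each of 3 libraries (adjusted p = 0.0515 to 0.0544) and with the replicate block (0.0588). The 4 ANG II libraries lay above the 4 control libraries for 19 of the 37 genes and below them for 0, beside 28.7% and 5.06% of all genes. Many of the 37 are abundant, and among the 6742 tested genes that average 10 FPKM or more, 14.7% passed as higher and 1.72% as lower. By adjusted p alone these shares were 40.5% and 9.31%, and 39.8% and 9.15% of these genes had all ANG II libraries above or below all control libraries. The median log2 fold change was 0.30 over the 37 genes and 0.15 over all genes tested, and 15 of the 37 lay below the median of all genes.

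**Figure D1:**
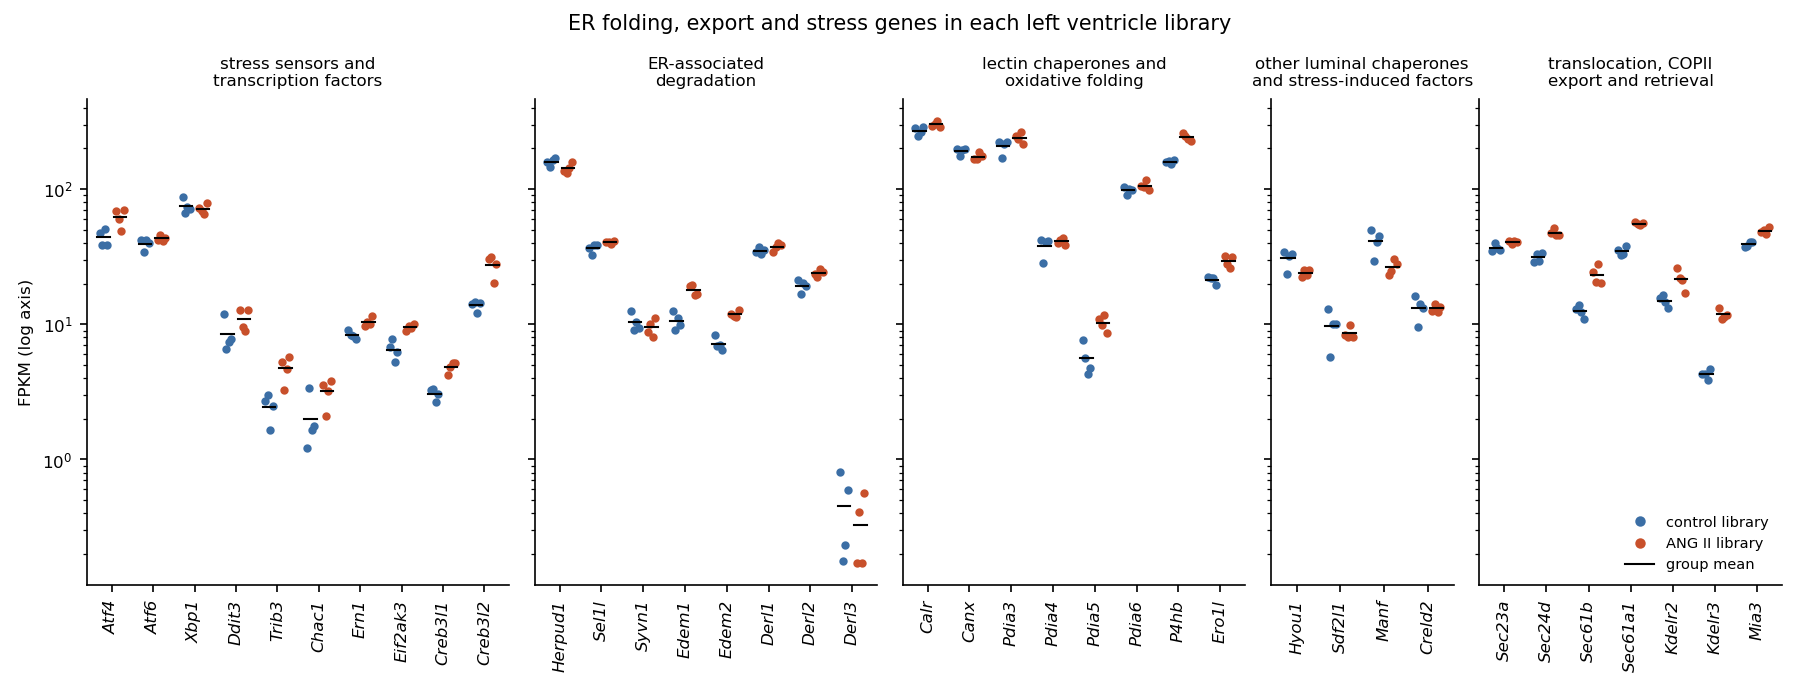
FPKM (log axis) of the 37 tested genes in each of the 4 control and 4 ANG II libraries, one point per library, with the mean of each group as a line and the genes set out by role. The levels run from Derl3, with a mean of 0.453 FPKM in control, to Calr at 269 FPKM, and Kdelr3 shows the widest gap between the groups, from 4.63 FPKM in the highest control library to 10.9 FPKM in the lowest ANG II library.

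**Figure D2:**
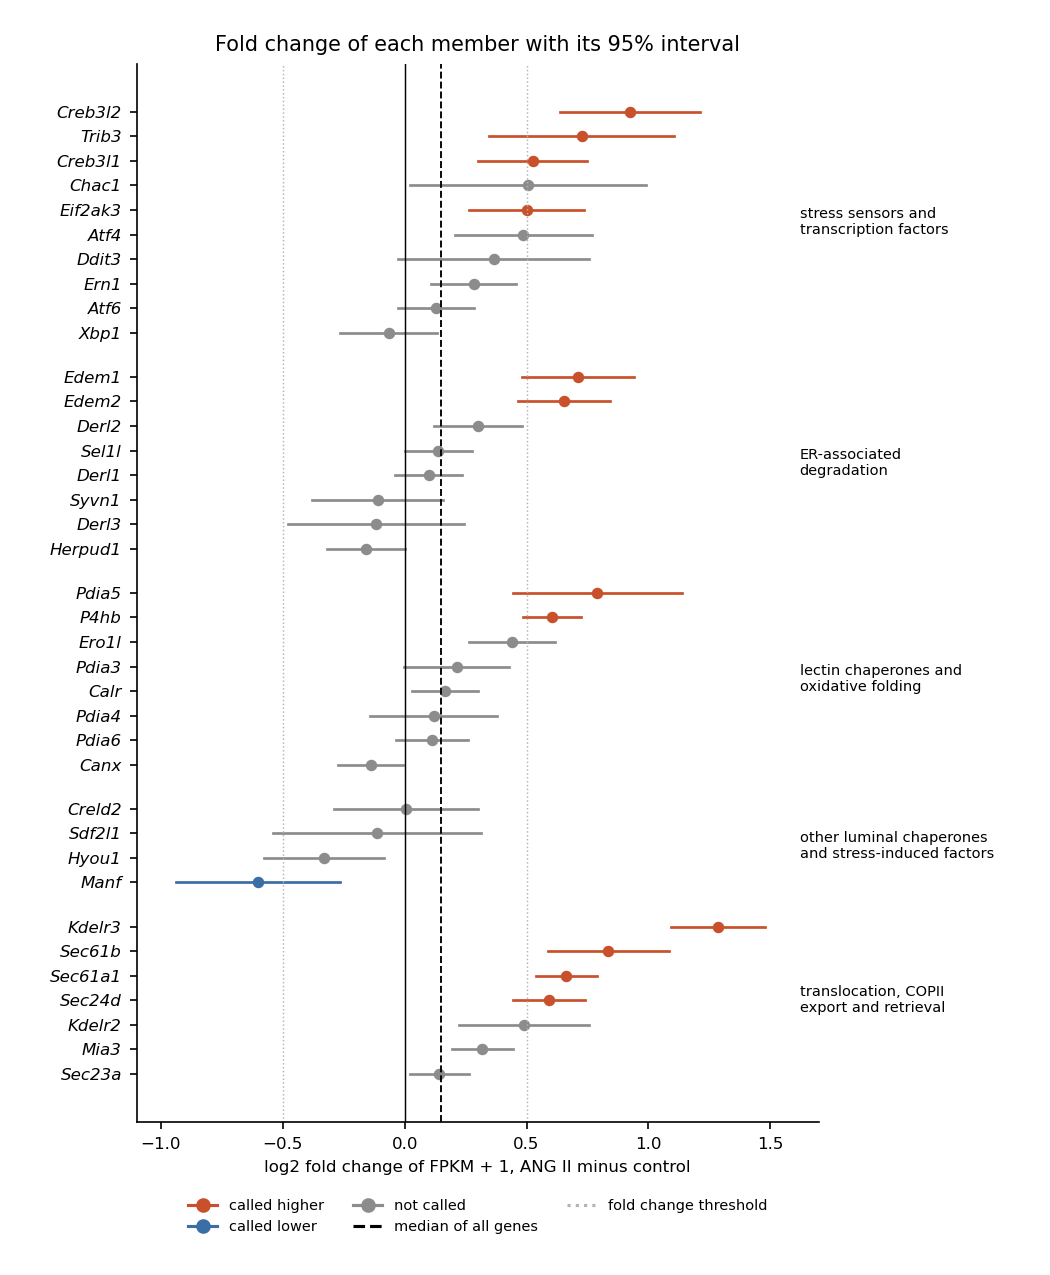
Log2 fold change of FPKM + 1 (ANG II minus control, limma) of each tested gene with its 95% confidence interval, by role, with dotted lines at the fold change threshold of 0.5 and a dashed line at the median of all genes (0.15). The 12 genes that passed as higher span all roles except the other luminal chaperones and stress-induced factors, which hold the 1 gene that passed as lower, Manf at -0.60.

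Markers of other cell types moved with the same groups. The summed level of 10 fibroblast markers was 561 to 837 FPKM in control and 3431 to 4088 FPKM in ANG II, and 10 of 10 passed as higher. These markers rose unequally. In mean FPKM, Postn was 20.1-fold higher, Col1a1 9.39-fold, Col1a2 8.75-fold, Col3a1 7.34-fold and Lum 3.42-fold. Pdgfra, Dcn, Dpt, Tcf21 and Fap were 1.63-fold to 1.98-fold higher. For 10 macrophage markers the sums were 301 to 378 FPKM and 678 to 947 FPKM, with 10 of 10 higher. Of 8 plasma and B cell markers, whose cells are rich in ER, 7 were tested, 1 was higher (Sdc1) and 1 lower (Mzb1), with sums of 7.05 to 9.66 FPKM and 16.2 to 21.5 FPKM. Without Sdc1 the sums overlapped, at 2.62 to 4.86 FPKM and 3.16 to 9.53 FPKM. The 10 cardiomyocyte markers, which define the labelled tissue, summed to 58678 to 59910 FPKM in control and 44958 to 47241 FPKM in ANG II, with 2 of 10 lower. Endothelial markers passed as higher in 1 of 8, smooth muscle and pericyte markers in 2 of 8 with 1 lower, T cell markers in 2 of 6, neutrophil markers in 4 of 4, erythroid markers in 5 of 5 and adipocyte markers in 0 of 3 tested. Skeletal muscle markers passed as higher in 2 of 3 tested (Acta1 and Tnnt3), and the remaining one of that list, Myh4, was at 0 in all libraries. The part of these cells in the results on the ER genes was not tested, and in bulk samples fewer cells of a type and less RNA per cell cannot be told apart.

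The counts depended on how the libraries were scaled. Mitochondrially encoded genes held 26.3% to 27.0% of the fragments in the control libraries and 19.2% to 21.8% in the ANG II libraries, without overlap. Without these genes and the top 10 genes, 6 of the 37 were higher and 2 lower, beside 9.59% and 3.23% of all genes. Median-of-ratios scaling brought the median log2 fold change of all genes from 0.15 to 0.0040, and the share of all genes that passed was then 8.63% higher and 4.16% lower. Of the 37 genes, 5 then passed as higher (Kdelr3, Creb3l2, Sec61b, Pdia5 and Trib3) and 2 as lower (Hyou1 and Manf). The log2 fold changes under this scaling were 1.09 for Kdelr3, 0.71 for Creb3l2, 0.62 for Sec61b, 0.59 for Pdia5, 0.55 for Trib3, -0.55 for Hyou1 and -0.82 for Manf. Creb3l1, Edem1, Edem2, Eif2ak3, P4hb, Sec24d and Sec61a1 kept a positive sign, at 0.30 to 0.50, below the fold change threshold, and Eif2ak3 also missed the threshold on adjusted p (0.0522). Xbp1, Herpud1 and Canx had negative values of -0.29, -0.39 and -0.37, each with an adjusted p under 0.05 and short of the fold change threshold. Under quantile normalization, where 7.31% of all genes passed as higher and 5.08% as lower, 4 of the 37 were higher (Trib3 no longer passed) and the same 2 were lower. The adjusted p of Eif2ak3 was then 0.14 and that of Creb3l1 0.146. Atf4, Ern1, Derl2, Kdelr2 and Mia3, which were higher by adjusted p alone with values as deposited, kept a positive sign but lost that call under both scalings and without the mitochondrially encoded and top 10 genes. In that order of settings Ern1 was at 0.076 (adjusted p = 0.49), 0.023 (0.851) and 0.12 (0.278). Derl2 was at 0.082 (adjusted p = 0.506), 0.077 (0.525) and 0.13 (0.258). Kdelr2 was at 0.27 (adjusted p = 0.117), 0.25 (0.153) and 0.32 (0.0681). Mia3 was at 0.10 (adjusted p = 0.303), 0.15 (0.0687) and 0.15 (0.0924).

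**Figure D3:**
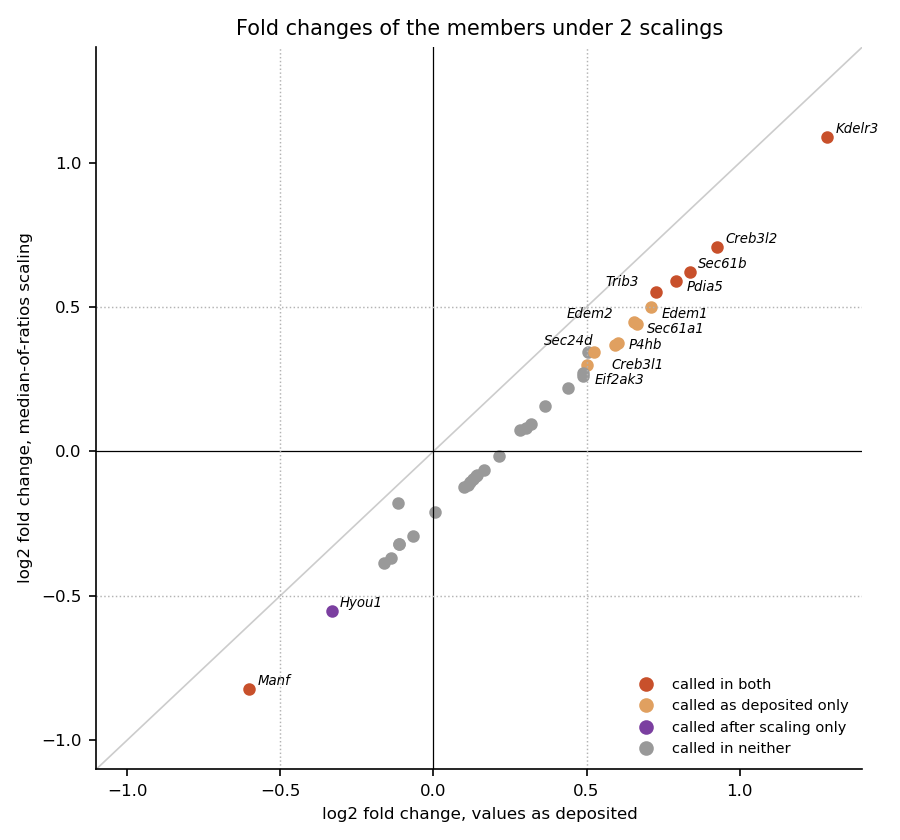
Log2 fold change of each tested gene with values as deposited (horizontal) against median-of-ratios scaling (vertical), with dotted lines at the threshold of 0.5 and the line of equal values in grey. The points lie below the line of equal values, 5 genes pass as higher in both, and Manf (-0.82) and Hyou1 (-0.55) pass as lower after scaling.

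The genes of translocation, COPII export and retrieval had the highest median log2 fold change of the 5 roles, 0.59. Of 7 tested, 4 were higher (Kdelr3, Sec61b, Sec61a1 and Sec24d), 0 were lower and 3 did not pass, beside 14% higher and 1.41% lower of all genes. By adjusted p alone 6 were higher, all but Sec23a, and for the same 6 genes the groups did not overlap. The shares of all genes were 28.4% and 28.7%, and those of genes that average 10 FPKM or more were 40.5% and 39.8%. The calls of Kdelr2 and Mia3 by adjusted p ended under each of the 3 scalings above. Sec61a1 and Sec24d fell short of the fold change threshold under each of them, whereas Kdelr3 and Sec61b still passed.

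Kdelr3 encodes a receptor that returns ER proteins carrying a KDEL-type tail from the Golgi. Kdelr3 (ENSMUSG00000010830, chromosome 15, 79516411 to 79527739) was at 4.27, 4.27, 3.85 and 4.63 FPKM in control and at 13.3, 10.9, 11.3 and 11.8 FPKM in ANG II. All 4 ANG II libraries lay above all 4 control libraries, and the mean was 2.78-fold higher. The log2 fold change was 1.29 ± 0.0859 (SE, adjusted p = 9.7e-06 by limma), the highest among the 37 genes. Kdelr2, which encodes another such receptor, was at 15.0 ± 1.43 FPKM in the controls and 21.6 ± 3.75 FPKM after ANG II (SD, n = 4), and its log2 fold change of 0.49 ± 0.120 (SE, adjusted p = 0.0109 by limma) fell short of the fold change threshold. It ranged from 13.2 to 16.4 FPKM in control and 16.9 to 26.1 FPKM in ANG II, without overlap, and passed at 0.513, 0.532 and 0.595 without control replicate 1, control replicate 2 or ANG II replicate 4.

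Sec61a1 and Sec61b encode the pore subunit and a small subunit of the translocon through which nascent chains enter the ER. Sec61a1 (ENSMUSG00000030082, chromosome 6, 88503579 to 88518905) was at 35.2, 32.6, 33.3 and 38.0 FPKM in control and at 56.8, 55.4, 53.9 and 56.3 FPKM in ANG II. Sec61b (ENSMUSG00000053317, chromosome 4, 47474658 to 47483242) was at 13.1, 13.8, 12.3 and 10.9 FPKM in control and at 24.4, 20.4, 27.9 and 20.2 FPKM in ANG II. For both genes the groups were apart, by 1.60-fold for Sec61a1 and 1.86-fold for Sec61b in their means. The log2 fold changes were 0.66 ± 0.0566 (SE, adjusted p = 3.74e-05 by limma) and 0.84 ± 0.111 (SE, adjusted p = 0.000407 by limma), in that order. Of the 50-base words of Sec61b transcripts, 17.4% also occur in transcripts of another gene, Gm10320, so its value is uncertain to the extent that fragments were divided between them. For Sec61a1, 8.16% of the exons lie under Gm44170 on the opposite strand.

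Sec24d and Sec23a encode subunits of the inner COPII coat, which buds vesicles from the ER, and Mia3 encodes TANGO1, which loads collagen into such vesicles. Sec24d (ENSMUSG00000039234, chromosome 3, 123267455 to 123365641) was at 28.8, 33.2, 29.6 and 33.5 FPKM in control and at 47.3, 51.4, 46.1 and 45.9 FPKM in ANG II. It was higher throughout in ANG II, with a log2 fold change of 0.59 ± 0.0659 (SE, adjusted p = 0.000151 by limma). Mia3 was at 39.2 ± 1.89 FPKM in the controls and 49.1 ± 2.47 FPKM after ANG II (SD, n = 4) with no overlap between the groups, but its log2 fold change of 0.32 ± 0.0557 (SE, adjusted p = 0.00185 by limma) was under the threshold. Sec23a, the partner of the SEC24 proteins in the coat, was at 36.8 ± 2.29 FPKM in the controls and 40.7 ± 0.880 FPKM after ANG II (SD, n = 4) with a log2 fold change of 0.14 ± 0.0543 (SE, adjusted p = 0.0718 by limma), and it did not pass. Of its exons, 8.90% lie under a gene on the opposite strand, Gm17529, and whether the counting used strand was not given in the sources used here.

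An unfolded protein response element (UPRE), searched as TGACGTGG on both strands, was in 0.676% of all promoter windows and in those of 3 of the 30 genes, all of export and retrieval. They are shown because 2 of the 3, Kdelr3 and Sec24d, passed as higher while Sec23a did not. Capitals mark the element, in either orientation, and it holds a match of CCACG.
Kdelr3 (chr15:79516368-79516395, plus strand): ggccgccccgCCACGTCAccgcgcggcc
Sec24d (chr3:123267460-123267487, plus strand): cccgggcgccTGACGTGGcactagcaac
Sec23a (chr12:59011994-59012021, minus strand): tcctccccttTGACGTGGcagaggcggc
Of the 122 tested genes with this element in a window, 19.7% passed as higher, beside 16.7% of the 12086 tested genes with any window. Relative to the start that the RefSeq window uses, the match in Sec23a lies after it and the others before it. This depends on the start chosen: by the GENCODE M21 start, 123267455, the match in Sec24d also lies after it.

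**Figure D4:**
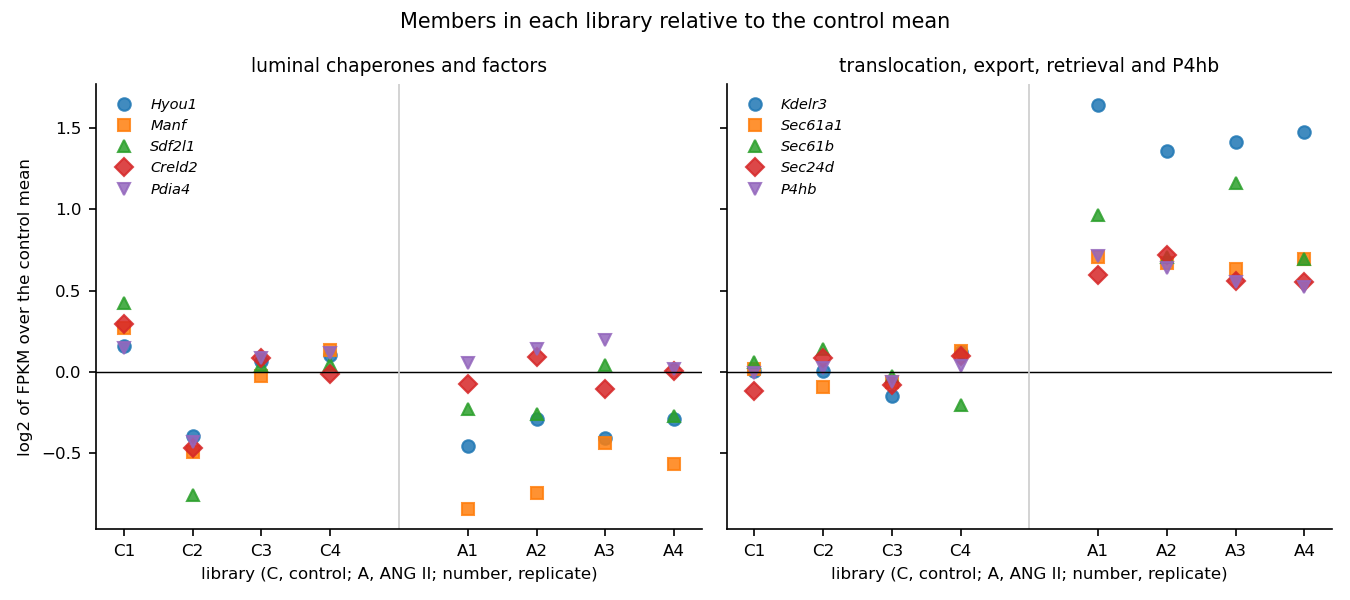
Log2 of FPKM over the control mean in each library (C, control; A, ANG II; the number is the replicate) for 5 luminal chaperones and factors (left) and for 4 genes of translocation, export and retrieval with P4hb (right). On the right all ANG II points lie above all control points, with Kdelr3 at the top, whereas on the left control replicate 2 lies low for all 5 genes and, within each ANG II library, the point of Manf (23.1 to 30.5 FPKM) is the lowest of the 5.

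Among the stress sensors and transcription factors, 4 of 10 tested were higher (Creb3l2, Trib3, Creb3l1 and Eif2ak3), 0 were lower and 6 did not pass. Of all genes, 14% passed as higher and 1.41% as lower. The median log2 fold change of the 10 was 0.49. By adjusted p alone 6 were higher, with Atf4 and Ern1 added, beside 28.4% of all genes. The calls of Atf4 and Ern1 ended under each of the 3 scalings. Creb3l1 and Eif2ak3 passed under none of these scalings, and Trib3 did not pass under quantile normalization.

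Creb3l2 and Creb3l1 encode transcription factors that are anchored in the ER membrane and released by cleavage in the Golgi, as ATF6 is. Creb3l2 (ENSMUSG00000038648, chromosome 6, 37327255 to 37442146) was at 14.1, 14.6, 12.1 and 14.4 FPKM in control and at 30.5, 31.3, 20.2 and 27.7 FPKM in ANG II. Its groups did not overlap, although ANG II replicate 3 was well below the other ANG II libraries, and the log2 fold change was 0.93 ± 0.128 (SE, adjusted p = 0.000512 by limma). Creb3l1 (ENSMUSG00000027230, chromosome 2, 91982328 to 92024502) was at 3.24, 3.34, 2.67 and 3.04 FPKM in control and at 4.23, 4.82, 5.18 and 5.22 FPKM in ANG II. Here too every ANG II library was above every control library, and the log2 fold change was 0.53 ± 0.0996 (SE, adjusted p = 0.00294 by limma). It lay near the threshold: without control replicate 3, ANG II replicate 3 or ANG II replicate 4 it was 0.476, 0.499 and 0.496, and did not pass. With a pseudocount of 0.1 in place of 1 it was 0.65 (adjusted p = 0.00253 by limma).

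In the PERK branch, Eif2ak3 (ENSMUSG00000031668, chromosome 6, 70844515 to 70905245) was at 6.75, 7.77, 5.22 and 6.24 FPKM in control and at 8.98, 9.73, 9.32 and 10.1 FPKM in ANG II. The groups did not overlap, and the log2 fold change was 0.50 ± 0.106 (SE, adjusted p = 0.00521 by limma), at the edge of the threshold. It was 0.414, 0.487, 0.491 and 0.474 without control replicate 3, control replicate 4, ANG II replicate 2 and ANG II replicate 4, and no longer passed in any of these. With a pseudocount of 0.1 it was 0.56 (adjusted p = 0.00487 by limma). Of the exons of Eif2ak3, 8.05% lie under Gm43292 on the opposite strand.

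Atf4, the transcription factor of this branch, whose protein level is set largely by translation, was at 47.6, 38.9, 50.7 and 38.4 FPKM in control and at 68.8, 60.2, 49.3 and 69.97 FPKM in ANG II. The groups overlapped, as ANG II replicate 3 lay below control replicate 3. Its log2 fold change was 0.49 ± 0.125 (SE, adjusted p = 0.0139 by limma) and missed the threshold. Left out in turn, control replicate 1, control replicate 3 and ANG II replicate 3 gave 0.53, 0.56 and 0.59, which passed. Under median-of-ratios scaling, quantile normalization and removal of the mitochondrially encoded and top 10 genes, Atf4 was at 0.26 (adjusted p = 0.14), 0.32 (0.0797) and 0.31 (0.0861).

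Ddit3 (CHOP), Trib3 and Chac1 are known targets of ATF4, with parts in cell death, in feedback on the branch and in the breakdown of glutathione. Ddit3 was at 11.9, 6.60, 7.44 and 7.73 FPKM in control and at 12.9, 9.48, 8.95 and 12.7 FPKM in ANG II. Control replicate 1 lay above 2 of the 4 ANG II libraries, and the log2 fold change of 0.37 ± 0.175 (SE, adjusted p = 0.14 by limma) did not pass. Without control replicate 1 it was 0.53 (adjusted p = 0.0194) and passed. Trib3 (ENSMUSG00000032715, chromosome 2, 152337422 to 152344032) was at 2.69, 2.98, 1.66 and 2.48 FPKM in control and at 5.25, 3.27, 4.70 and 5.69 FPKM in ANG II. Each ANG II library was above each control library, the nearest being ANG II replicate 2 and control replicate 2, and the log2 fold change was 0.73 ± 0.170 (SE, adjusted p = 0.0088 by limma). Chac1 was low, at 2.01 ± 0.949 FPKM in the controls and 3.19 ± 0.760 FPKM after ANG II (SD, n = 4), and overlapped between the groups through control replicate 2. Its log2 fold change was 0.51 ± 0.216 (SE, adjusted p = 0.102 by limma) and, without control replicate 2, 0.70 (adjusted p = 0.014), which passed.

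The letters TTGCATCA, a form of the element bound by ATF4, were searched on both strands and found in 0.895% of all windows and in those of 2 of the 30 genes. They are shown because Chac1 is a target of ATF4 and Herpud1 holds ERSE-II as well.
Chac1 (chr2:119351039-119351066, plus strand): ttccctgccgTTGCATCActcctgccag
Herpud1 (chr8:94386307-94386334, plus strand): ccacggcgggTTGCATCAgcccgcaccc
Neither gene passed, with log2 fold changes of 0.51 for Chac1 and -0.16 for Herpud1. Of the 89 tested genes with these letters in a window, 24.7% passed as higher and 0 as lower, beside 16.7% and 1.28% of the tested genes with any window. Trib3 had a window without these letters, as did Ddit3 and Atf4.

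In the IRE1 branch, Ern1 was at 9.15, 8.40, 8.14 and 7.83 FPKM in control and at 9.72, 10.4, 9.99 and 11.5 FPKM in ANG II. The groups did not overlap, and the log2 fold change of 0.28 ± 0.0780 (SE, adjusted p = 0.0193 by limma) was under the threshold. Xbp1, whose mRNA IRE1 splices, was at 87.6, 66.5, 73.7 and 71.4 FPKM in control and at 72.4, 68.5, 65.1 and 78.8 FPKM in ANG II. The control and ANG II libraries were mixed throughout, with the highest value in control replicate 1 and the lowest in ANG II replicate 3. Its log2 fold change was -0.066 ± 0.0884 (SE, adjusted p = 0.606 by limma), with a 95% interval from -0.26 to 0.13.

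Atf6, the sensor of the ATF6 branch, was at 42.0, 34.4, 41.8 and 40.1 FPKM in control and at 42.3, 46.0, 41.6 and 43.3 FPKM in ANG II. Control replicate 2 was the lowest, and the other 7 lay close together. The log2 fold change was 0.13 ± 0.0698 (SE, adjusted p = 0.185 by limma), with a 95% interval from -0.026 to 0.29, and it turned to -0.094 under median-of-ratios scaling. Mean expression of the sensors was 39.6 FPKM for Atf6 in control, 8.38 FPKM for Ern1 and 6.498 FPKM for Eif2ak3, a scale that is per transcript length.

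Of the 8 genes of ER-associated degradation, which takes misfolded proteins back to the cytosol, 2 were higher (Edem1 and Edem2), 0 were lower and 6 did not pass. Of all genes, 14% passed as higher and 1.41% as lower. The median log2 fold change of the 8 genes, 0.12, was below that of all genes tested. Edem1 and Edem2 encode proteins that trim mannose from misfolded glycoproteins and so mark them for disposal. Edem1 (ENSMUSG00000030104, chromosome 6, 108828641 to 108859356) was at 12.5, 9.01, 11.1 and 9.96 FPKM in control and at 19.1, 19.6, 16.4 and 16.8 FPKM in ANG II. Edem2 (ENSMUSG00000038312, chromosome 2, 155701677 to 155729475) was at 8.35, 6.91, 7.08 and 6.48 FPKM in control and at 11.9, 11.6, 11.2 and 12.7 FPKM in ANG II. Neither gene overlapped between the groups. The log2 fold changes were 0.71 ± 0.102 (SE, adjusted p = 0.000621 by limma) for Edem1 and 0.65 ± 0.0849 (SE, adjusted p = 0.000355 by limma) for Edem2. Both fell short of the fold change threshold under median-of-ratios scaling and quantile normalization. Edem2 also did so without the mitochondrially encoded and top 10 genes.

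The membrane complex of this pathway gave no gene that passed. Derl2, one of the derlins of the channel, ranged from 16.6 to 21.3 FPKM in control and 22.3 to 25.8 FPKM in ANG II without overlap, and its log2 fold change of 0.30 ± 0.0806 (SE, adjusted p = 0.0167 by limma) was under the threshold, with an adjusted p that no longer passed under any of the 3 scalings. Sel1l, the adaptor of the ubiquitin ligase, ranged from 32.7 to 38.9 FPKM in control and 39.4 to 41.2 FPKM in ANG II, also without overlap, with a log2 fold change of 0.14 ± 0.0615 (SE, adjusted p = 0.117 by limma). Syvn1 (HRD1), the ligase itself, had a log2 fold change of -0.11 (adjusted p = 0.517), with the ANG II libraries at 8.05 to 11.1 FPKM among control libraries at 9.06 to 12.5 FPKM. With each library left out, the value of Syvn1 ran from -0.18 (without ANG II replicate 4) to -0.022 (without control replicate 1), and under quantile normalization it was -0.38 (adjusted p = 0.0392). Herpud1, a membrane protein that joins the ligase complex and is itself induced by ER stress, was the most abundant of the 8, at 159.5 ± 11.0 FPKM in the controls and 143 ± 12.1 FPKM after ANG II (SD, n = 4), with a log2 fold change of -0.16 ± 0.0713 (SE, adjusted p = 0.116 by limma). Derl1 was at 35.02 ± 1.79 FPKM in the controls and 37.6 ± 2.39 FPKM after ANG II (SD, n = 4), with a log2 fold change of 0.10 (adjusted p = 0.252). Derl3, at 2 to 9 fragments per library, had -0.12 (adjusted p = 0.619), and how large a difference could be detected at this depth was not tested.

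Among the lectin chaperones and the enzymes of oxidative folding, 2 of 8 were higher (P4hb and Pdia5), 0 were lower and 6 did not pass, with a median log2 fold change of 0.19 (0.12 without control replicate 2). Of all genes, 14% passed as higher and 1.41% as lower. P4hb encodes protein disulfide isomerase, which is also the beta subunit of the prolyl 4-hydroxylase that modifies collagen. P4hb (ENSMUSG00000025130, chromosome 11, 120560298 to 120573253) was at 159, 162, 153 and 163 FPKM in control and at 261, 248, 234 and 228 FPKM in ANG II. All ANG II libraries lay above all control libraries, and the log2 fold change was 0.60 ± 0.0530 (SE, adjusted p = 4.31e-05 by limma). Under each of the 3 scalings P4hb fell short of the fold change threshold. Pdia5 encodes another isomerase of the family. Pdia5 (ENSMUSG00000022844, chromosome 16, 35397312 to 35490873) was at 7.66, 5.63, 4.29 and 4.78 FPKM in control and at 11.0, 9.80, 11.7 and 8.58 FPKM in ANG II. Its groups did not overlap either, with a log2 fold change of 0.79 ± 0.154 (SE, adjusted p = 0.00341 by limma). Ero1l, the oxidase that recharges the isomerases, was at 21.4 ± 1.28 FPKM in the controls and 29.4 ± 2.97 FPKM after ANG II (SD, n = 4) without overlap, and its log2 fold change of 0.44 ± 0.0790 (SE, adjusted p = 0.0022 by limma) was under the threshold.

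None of the lectin chaperones passed. Calr (calreticulin), which also binds calcium in the lumen, was at 269 ± 18.9 FPKM in the controls and 302 ± 13.9 FPKM after ANG II (SD, n = 4), with a log2 fold change of 0.16 ± 0.0608 (SE, adjusted p = 0.0632 by limma). Its membrane-bound relative Canx (calnexin) was at 192 ± 11.3 FPKM in the controls and 174 ± 9.80 FPKM after ANG II (SD, n = 4), with -0.14 ± 0.0590 (SE, adjusted p = 0.0978 by limma). Pdia3 (ERp57), the isomerase that works with both lectins, was at 208 ± 25.8 FPKM in the controls and 240.5 ± 20.4 FPKM after ANG II (SD, n = 4), with 0.21 ± 0.0965 (SE, adjusted p = 0.12 by limma). Pdia4 and Pdia6, which serve client proteins with the luminal HSP70, had log2 fold changes of 0.12 (adjusted p = 0.471) and 0.11 (adjusted p = 0.228). For Pdia4 the sign rested on control replicate 2, without which the value was -0.014. Without the same library Pdia3 was at 0.12 and Pdia6 at 0.07, and Pdia6 was at 0.062 without ANG II replicate 3. The signs of Calr, Pdia3, Pdia4 and Pdia6 all turned under median-of-ratios scaling.

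Of the 4 other luminal chaperones and stress-induced factors, 0 were higher, 1 was lower (Manf) and 3 did not pass, beside 14% higher and 1.41% lower of all genes. All 4 lay below the median of all genes. The median log2 fold change was -0.22, and it was -0.39 without control replicate 2 and -0.12 without control replicate 1. Manf encodes a small secreted ER protein that is induced by ER stress and acts as a cofactor of the luminal HSP70. Manf (ENSMUSG00000032575, chromosome 9, 106838312 to 106891979) was at 49.9, 29.4, 40.7 and 45.4 FPKM in control and at 23.1, 24.7, 30.5 and 28.0 FPKM in ANG II. Its ANG II libraries were below 3 of the 4 control libraries, and control replicate 2 lay among them. The log2 fold change was -0.60 ± 0.150 (SE, adjusted p = 0.0123 by limma). Without control replicate 2 it was -0.75 (adjusted p = 0.00105), and it passed without each other library as well. Of its exons, 8.85% lie under genes of the opposite strand.

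Hyou1 (ORP150), a large chaperone related to HSP70 that also exchanges its nucleotide, was at 34.4, 23.5, 32.2 and 33.1 FPKM in control and at 22.5, 25.3, 23.2 and 25.2 FPKM in ANG II. The 4 ANG II libraries lay below control replicates 1, 3 and 4, and control replicate 2 lay among them. The log2 fold change was -0.33 ± 0.110 (SE, adjusted p = 0.0426 by limma), under the threshold. It was -0.45 without control replicate 2 and -0.28 without control replicate 1. Sdf2l1, a partner of the luminal DnaJ proteins, ranged from 5.75 to 12.99 FPKM in control and 8.02 to 9.97 FPKM in ANG II, with a log2 fold change of -0.11 (adjusted p = 0.69). Creld2, another protein that is induced by ER stress, ranged from 9.63 to 16.3 FPKM in control and 12.4 to 14.2 FPKM in ANG II, with 0.0044 (adjusted p = 0.985). Without control replicate 2 the values of Sdf2l1 and Creld2 became -0.32 and -0.13, and without control replicate 1 they became 0.032 and 0.10. Neither gene passed in these fits.

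The 7 genes whose promoter windows hold ERSE or ERSE-II, shown above, had log2 fold changes between -0.16 and 0.16, and 0 of them passed. Their levels were as different as 0.453 FPKM for Derl3 and 269 FPKM for Calr in control. Across the table, 19 tested genes had ERSE in a window, of which 1 passed as higher and 1 as lower, or 5.26% each, beside 16.7% and 1.28% of the tested genes with any window. Absence of a match says only that the letters are not in the window.

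Related genes were compared within each library as the log2 ratio of their FPKM + 1, in which the scaling of a library cancels apart from the pseudocount. The ratio of Kdelr3 to Kdelr2 was -1.67, -1.72, -1.68 and -1.33 in control and -0.92, -0.95, -0.85 and -0.48 in ANG II. The groups did not overlap, and the mean went from -1.600 ± 0.182 to -0.80 ± 0.216 (SD, n = 4), a difference of 0.80. By an exact two-sided permutation test its p was 0.0286, the smallest that 4 against 4 libraries can give, and 0.114 after adjustment over the 4 ratios tested, so that it did not pass. In FPKM, Kdelr3 was at 0.284 of the level of Kdelr2 in control and at 0.548 in ANG II.

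The other ratios overlapped between the groups. For Creb3l1 to Creb3l2 the difference was -0.40 (exact permutation p = 0.143, adjusted 0.190), and ANG II replicate 3, with the lowest Creb3l2 of its group, lay at -1.78, above the control libraries at -1.93 to -1.83, while the other 3 ANG II libraries lay below them. For Derl1 to Derl2 it was -0.20 (exact permutation p = 0.114, adjusted 0.190), and -0.11 without control replicate 2. For Edem1 to Edem2, which passed together, it was 0.058 (exact permutation p = 0.543; 0.0048 to 0.12 with each library left out), with ratios of 0.34 to 0.58 in control and 0.38 to 0.72 in ANG II.

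**Figure D5:**
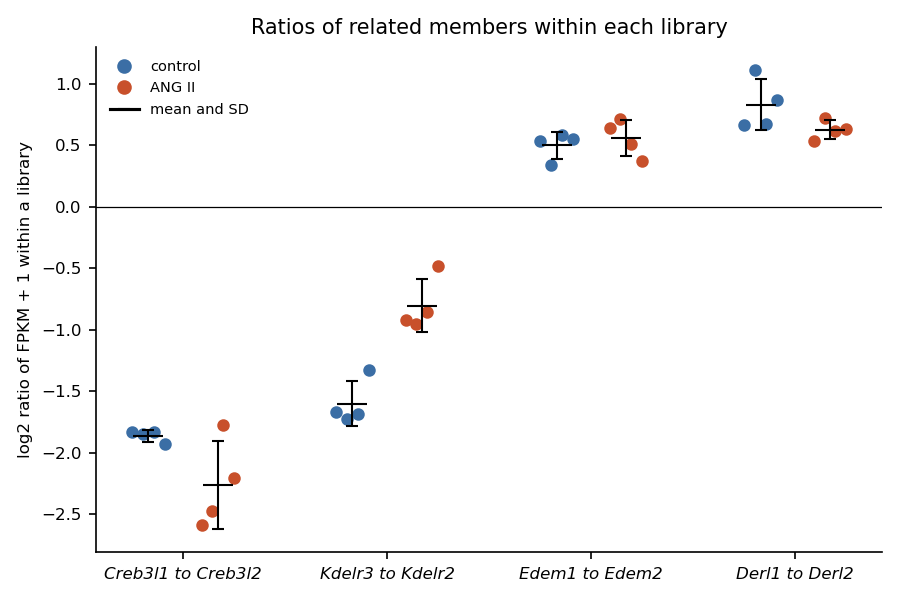
Log2 ratio of FPKM + 1 of related genes within each library, one point per control and ANG II library, with mean and SD (n = 4 each). For Kdelr3 to Kdelr2 the ANG II points (-0.95 to -0.48) lie above all control points (-1.72 to -1.33), and the other ratios overlap between the groups.

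Other genes of the ER and of early secretion, a list of 128 names of which 125 were in the table, gave 124 tested genes. Of these, 19 were higher and 1 lower, against 14% and 1.41% of all genes, and by adjusted p alone 80 were higher and 4 lower, against 28.4% and 4.91% of all genes and 40.5% and 9.31% of the genes that average 10 FPKM or more, with a median log2 fold change of 0.29. The 20 that passed became 10 under median-of-ratios scaling, 9 under quantile normalization and 13 without mitochondrially encoded genes and the top 10 genes. The 4 with the highest log2 fold change among those that passed were Nupr1, a stress-induced transcriptional cofactor, at 1.92, Fkbp10, a prolyl isomerase that acts on collagen, at 1.13, the disulfide isomerase Txndc5 at 0.93 and the cargo receptor Tmed3 at 0.92. The 1 that was lower was Hspa5 (BiP), the luminal HSP70 with which Hyou1, Manf and Sdf2l1 work. Hspa5 was at 745, 540.4, 669 and 707 FPKM in control and at 403, 423, 434 and 451 FPKM in ANG II. Its groups did not overlap, control replicate 2 was again the lowest of its group, and the log2 fold change was -0.63 ± 0.0932 (SE, adjusted p = 0.000741 by limma).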

How the data were processed

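The authors deposited 1 table of FPKM values for the 8 libraries, made from paired 150-base reads after oligo(dT) enrichment. The submitters' processing notes name HISAT, Bowtie2 and RSEM without version or role; build, annotation and use of strand were not given in the sources used here. The extraction text of the labels names "CRC cells", whereas the tissue label is left ventricle. The paper describes its sequenced samples as biological replicates, 16 per group; samples beyond these 8 were not analysed here. Libraries were grouped by their treatment labels, which name no mice.

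Genes averaging 0.1 FPKM or more were kept, and log2(FPKM + 1) was fitted in R 4.3.3 with limma 3.58.1 (lmFit and a trended eBayes, no covariate). Two-sided p-values were adjusted by Benjamini-Hochberg over all 19364 tested genes. The methods of the study give limma and both thresholds; base 2, the pseudocount of 1, which makes fold changes of low genes too small, and the filter were choices made here. Fragments were recovered from the steps of the FPKM values with GENCODE M21 lengths: of values under 60 fragments, at least 99.2% (1 exon) and 97.6% (several exons) were within 0.05 of a whole number. Such counts give the depth behind a value and do not measure the variation between libraries. Ratios were compared by exact permutation over 70 allocations. Motifs were searched with Python 3.11.15, and 28 of the 31 windows ended in a transcript of their gene. The limma fit was also run on simulated counts, with genes raised and lowered in equal number and libraries scaled by their known size. That run cannot show how the scaling of the real libraries affects the calls. The 37 genes, the other lists and the tests were chosen with earlier results of these data known. All 37 are named, with values in every library for those that passed and for the sensors and factors of the 3 branches; of the other ER genes, up to 4 with the highest and 4 with the lowest fold change among those that passed are named. Alternatives changed the pseudocount, filter, scaling, variance trend, block, threshold and test, or left out a library.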

Additional observations from a re-analysis of the deposited data

Results flagged for a closer look

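In each group of 4 libraries, the highest and the lowest value of each tested gene were compared with the rest by Dixon's ratio. Of 74 groups, 4 held a library that stood apart, and chance marks about 1 in 20. Control replicate 2 was low for 2 isomerases. Pdia3 was at 169 FPKM there and at 218 to 223 FPKM in the other controls, and Pdia4 was at 28.3 FPKM there and at 40.5 to 42.3 FPKM in the others. Ero1l, the oxidase, was at 19.5 FPKM in control replicate 4 and at 21.8 to 22.3 FPKM in the other controls, and its ANG II values were all above these. Sdf2l1 was at 9.97 FPKM in ANG II replicate 3 and at 8.02 to 8.28 FPKM in the other ANG II libraries, within the range of its control libraries.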

How the results depend on the processing

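The counts of ER genes moved with the scaling and the threshold. Median-of-ratios scaling, quantile normalization and removal of mitochondrially encoded genes with the top 10 genes gave 5, 4 and 6 higher and 2 lower genes each, and 10, 9 and 13 of the other ER genes, beside 8.63%, 7.31% and 9.59% of all genes higher and 4.16%, 5.08% and 3.23% lower. The median log2 fold change of the 37 genes minus that of all genes, 0.15, became 0.078, 0.12 and 0.096, and it was 0.091 with a pseudocount of 0.1, 0.25 without a filter and 0.081 with voom on recovered fragments. No fold change threshold gave 18 higher and 2 lower genes, 6447 of all genes and 84 other ER genes; a threshold of 1 gave 1 (Kdelr3), 0, 795 and 2. Under these 3 scalings the sign turned for Atf6 (-0.094, -0.041 and -0.043), Sel1l (-0.086, -0.042 and -0.036), Derl1 (-0.12, -0.088 and -0.074), Pdia4 (-0.10, -0.054 and -0.054), Pdia6 (-0.12, -0.066 and -0.064), Creld2 (-0.21, -0.24 and -0.16) and Sec23a (-0.082, -0.040 and -0.031), under the first and last for Calr (-0.064 and -0.012), and under the first for Pdia3 (-0.015). The cause was not tested.

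With each library left out in turn, 11 to 15 genes were higher and 1 lower (Manf, -0.75 to -0.50), the median difference was 0.12 to 0.18, all genes that passed were 2763 to 3109 and other ER genes 17 to 23. The signs of Creld2 (-0.13 to 0.10), Pdia4 (-0.014 to 0.17), Sdf2l1 (-0.32 to 0.032) and Xbp1 (-0.12 to 0.011) turned. Leaving out 1 library moved the log2 fold change by over 1.5 times for 0 of the 13 genes that passed and for 10 of the 24 that did not: these 4, Atf6 (0.066 to 0.16), Sel1l (0.084 to 0.17), Syvn1 (-0.18 to -0.022), Derl3 (-0.21 to -0.0047), Pdia3 (0.12 to 0.26) and Pdia6 (0.062 to 0.14). The difference in the log2 ratio of Kdelr3 to Kdelr2 was 0.69 to 0.89 (exact permutation p = 0.0571, the smallest that 3 against 4 can give).

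Replicate numbers are shared by the groups, but same-numbered libraries did not deviate together (correlations of -0.032 to 0.062). With the replicate block 12 genes were higher and 1 lower, beside 2700 and 268 of all 19364 genes tested. The Kdelr3 to Kdelr2 difference, which pairing cannot alter (0.80), had an exact sign flip p of 0.125, the smallest that 4 pairs can give. Derl3 was at 2 to 9 fragments per library, and Chac1 and Trib3 were at as few as 29. The part of depth in their results was not tested.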
